A study of Mus musculus with 15 samples.

Results

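Within the CD62L+ cells of a memory-inducing culture, the CD44lo gate was compared with the CD44+ gate. The comparison uses 6 of the 15 RNA-seq libraries of the study, chosen by their labels: 3 of cocktail CD44loCD62L+ cells and 3 of cocktail CD44+CD62L+ cells. Both populations are CD8 T cells of OT-I mice, whose transgenic receptor recognises the ovalbumin peptide SIINFEKL. They were negatively selected, mixed with SIINFEKL-coated dendritic cells from bone marrow and grown for 14 days with IL-7, IL-21, 2-deoxyglucose (a glucose analogue that blocks glycolysis) and TWS119 (an inhibitor of glycogen synthase kinase 3). Both thus share antigen, cytokines and drugs, and they were separated only by the sort. The other 9 libraries, 3 each, are cocktail CD44+CD62L- cells, CD44+CD62L- cells grown for 14 days in IL-2, and uncultured naive OT-I cells, whose gate is called CD44- in the design text and CD44lo in the labels. The age and number of the mice are not stated in the labels. Each population's RNA was prepared as 3 technical replicates, so the tests measure the spread between libraries and not that between mice or cultures.

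CD44 is an adhesion receptor for hyaluronan that T cells raise after meeting antigen, and CD62L lets T cells enter lymph nodes. T cells that are not dividing are held in quiescence by factors such as Klf2, and cells in cycle switch on genes in waves: those for DNA copying at the entry to S phase, and those for the spindle, chromosome segregation and cytokinesis in G2 and mitosis. The late wave is known for a promoter element, the cell cycle homology region, which recruits repressor complexes in resting cells and the activators B-Myb and Foxm1 in dividing cells, often beside CCAAT boxes. E2F sites are typical of the earlier wave.

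In the CD44loCD62L+ cells, 138 genes of the cell division lists were lower. The smaller number of higher genes included Klf2 and S1pr1, which act in quiescence and recirculation, and Klf3. Of 11242 genes tested, 301 changed (2.68%), of which 254 were lower (2.26%) and 47 higher (0.418%). Here a gene counts as lower or higher where the limma adjusted p was under 0.05 and the population values differed at least 2-fold after adding 1 FPKM. Lists of cell division genes held 244 of the genes tested, and 138 of the 254 lower genes were in them, against 0 of the 47 higher genes. Of the higher genes, 9 were in any of the lists used. Log2 fold changes were taken after adding 1 FPKM to each value, so those of low genes come out too small. FPKM is a fragment count scaled by transcript length and a measure of library size. In bulk samples, fewer cells of a type and less RNA per cell cannot be told apart, so a lower value here could be fewer dividing cells or less transcript in each.

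Libraries of the same gate were close to each other. For genes of 10 to 100 FPKM, replicates had a median coefficient of variation of 1.80% in the CD44loCD62L+ and 1.93% in the CD44+CD62L+ cells, and each library had 10448 to 10473 genes at 1 FPKM or more. Absolute depth is unknown, but steps among low values put the CD44+CD62L+ libraries at 0.884 to 0.898 of the depth of CD44loCD62L+ replicate 1. This reads the normalized values as scaled by depth, which was not checked. The spread was so small that adjusted p alone called 36.5% of all genes higher and 36.9% lower, so the minimum fold sets which genes are called. The median log2 fold change of all genes was 0, with a 5th percentile of -0.67 and a 95th of 0.46. Of the higher genes 8, and of the lower genes 2, were small RNA genes, which are short and poorly estimated by this unit and are not described further. Markers of CD8 T cells were high in both populations: Cd3e, a T cell receptor subunit, was at 286 against 253 FPKM, Cd8a at 309 against 278 and Cd8b1 at 452 against 397.

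Markers of other cells were compared as sums over each list, and their part in the results was not tested. The summed FPKM of 20 dendritic cell and macrophage markers was 276 to 285 in the CD44loCD62L+ libraries and 283 to 293 in the CD44+CD62L+ libraries. Of 13 such markers tested, Batf3, a transcription factor that T cells also express, was lower (3.90 against 13.5 FPKM, and 24.9 in the IL-2 cells) and none was higher. At the adjusted p alone 6 were higher and 5 lower, and 6 and 5 at an unadjusted p under 0.05, so near-equal sums hold members that differ: Ctss was at 112 against 72.1 FPKM, Cst3 at 110 against 141 and Cd74 at 10.1 against 17.2. The sums were 2.78 to 3.08 against 2.36 to 2.54 for 10 B cell markers, 47.8 to 48.8 against 41.5 to 43.2 for 6 NK cell markers, and 9.15 to 9.95 against 12.01 to 12.4 for 6 CD4 T cell markers. For 12 erythroid, platelet and neutrophil markers they were 1.97 to 2.30 against 2.36 to 5.79. Most of the NK cell sum came from Eomes (39.9 against 35.2 FPKM). Likewise, most of the CD4 T cell sum came from Zbtb7b (7.73 against 9.19 FPKM). These 2 sums thus mainly follow 1 gene each and do not measure the content of those cells. Listed at 0 in both populations were 3 of the 10 B cell markers (Ms4a1, Pax5 and Blk) and 1 of the 6 CD4 T cell markers (Il4). So were 4 of the 12 erythroid, platelet and neutrophil markers, among them Hbb-b1, Ppbp and Elane. The other members of these lists were above 0 in some of these libraries, and a 0 can be a failed estimate.

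Cd44, whose product defined the gates, was at 31.3 ± 0.591 FPKM (SD, n = 3) in the CD44loCD62L+ cells and 38.5 ± 0.866 in the CD44+CD62L+ cells, a log2 fold change of -0.29, under the minimum fold. Naive cells had 7.24 FPKM. As the cells were sorted on CD44, this difference is not independent of the gates.

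The promoters of 6 mitotic genes among the lowest fold changes are shown because their letters carry the element of the late wave. They come from the mitotic genes with the lowest fold changes that hold a cell cycle homology region within the letters shown, and not every such gene is shown. Plk1, Aurka and Ccnb1 had lower fold changes than all 6 but did not meet this rule, and neither did Nusap1 and Ccna2. The letters are RefSeq promoters on GRCm38.p6, from 170 bases before to 30 bases after the start. Capitals mark the homology region (TTTGAA or TTCGAA, or its reverse complement) and the CCAAT box (CCAAT or ATTGG).

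Cdk1 (chr10:69352883-69353082, minus strand): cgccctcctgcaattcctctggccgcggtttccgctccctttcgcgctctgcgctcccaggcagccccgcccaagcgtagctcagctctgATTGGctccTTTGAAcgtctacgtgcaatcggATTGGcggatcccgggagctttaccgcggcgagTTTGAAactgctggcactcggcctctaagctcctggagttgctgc
Prc1 (chr7:80294281-80294480, plus strand): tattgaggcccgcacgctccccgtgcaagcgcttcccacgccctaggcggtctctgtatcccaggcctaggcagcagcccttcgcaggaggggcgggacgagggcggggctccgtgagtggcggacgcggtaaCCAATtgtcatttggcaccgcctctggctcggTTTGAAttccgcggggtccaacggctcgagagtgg
Ccnf (chr17:24251380-24251579, minus strand): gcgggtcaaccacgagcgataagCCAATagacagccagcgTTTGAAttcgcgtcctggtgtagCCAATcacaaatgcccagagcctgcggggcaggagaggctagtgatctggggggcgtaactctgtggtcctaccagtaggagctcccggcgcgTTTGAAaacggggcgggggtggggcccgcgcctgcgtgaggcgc
Fam83d (chr2:158767929-158768128, plus strand): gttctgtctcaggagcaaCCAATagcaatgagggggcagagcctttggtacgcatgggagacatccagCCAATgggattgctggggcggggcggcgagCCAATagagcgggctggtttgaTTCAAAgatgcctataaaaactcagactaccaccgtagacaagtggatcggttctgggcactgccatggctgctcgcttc
Kif18b (chr11:102925095-102925294, minus strand): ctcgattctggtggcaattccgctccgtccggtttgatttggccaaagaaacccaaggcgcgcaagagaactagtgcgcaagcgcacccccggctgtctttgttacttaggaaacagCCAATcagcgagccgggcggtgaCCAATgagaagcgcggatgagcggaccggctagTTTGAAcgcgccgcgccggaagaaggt
Spc25 (chr2:69206184-69206383, minus strand): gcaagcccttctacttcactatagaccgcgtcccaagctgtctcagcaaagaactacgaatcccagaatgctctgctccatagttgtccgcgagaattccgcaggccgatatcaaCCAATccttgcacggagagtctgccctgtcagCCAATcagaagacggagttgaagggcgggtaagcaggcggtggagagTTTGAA

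In Cdk1 a homology region begins 15 bases before the start and a CCAAT box 48 bases before it, with a second pair at 71 and 80 bases. Prc1 and Ccnf have homology regions 5 and 14 bases before the start, and the one of Fam83d lies 50 bases before it on the opposite strand. Those of Kif18b and Spc25 begin 4 and 25 bases after the start. All 6 hold at least 1 CCAAT box upstream of the homology region nearest the start, and Fam83d holds 3.

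These letters were common in the promoters of the lower genes as a group. RefSeq promoters, taken from 250 bases before to 50 after the start and searched on both strands, were matched for 199 of the 254 lower genes. A homology region was in 100 of them (50.3%), against 14.2% of the 8934 tested genes that had a promoter and 19.4% of all 27025 promoters. A CCAAT box was in 64.3% of the lower genes' promoters and in 39.7% of those of tested genes. Both together were in 36.2%, against 6.19%. In the mitotic lists, a homology region was in 59 of 88 promoters (67.1%) and an E2F site (TTGGCGC or TTCCCGC) in 20.5%. In the DNA replication list the order was the other way round: a homology region was in 9 of 37 promoters (24.3%) and an E2F site in 21 (56.8%), against 13% of tested genes. Of the 28 promoters matched for higher genes, 4 held a homology region (14.3%) and 1 an E2F site. The reverse complement of TTGGCGC can share bases with a CCAAT box. A match describes the letters and is not a bound site. Other forms of the homology region were not searched, so its shares count these exact letters only.

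**Figure D1:**
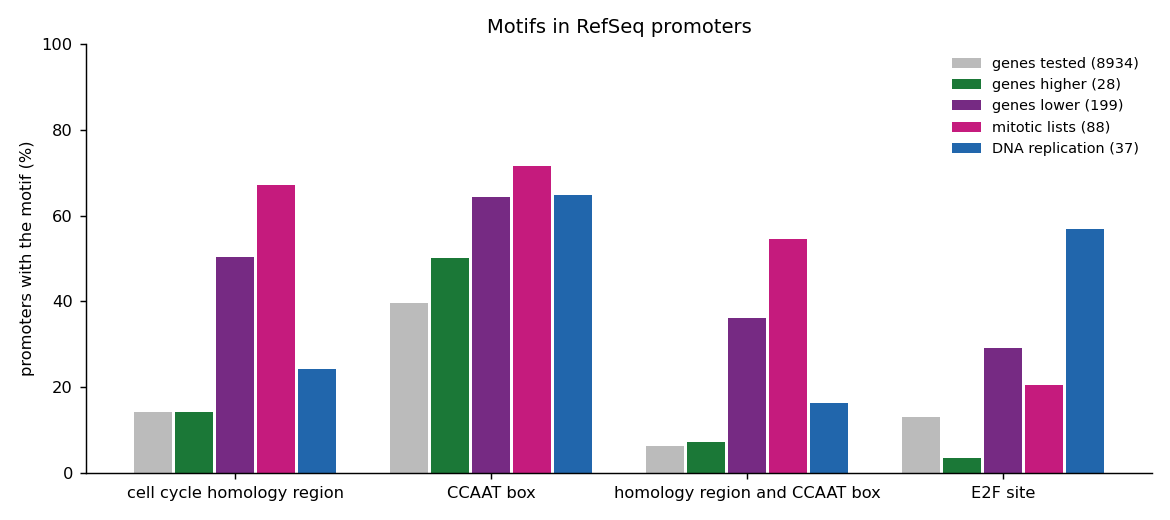
Share of RefSeq promoters (vertical axis, %) that hold each motif (horizontal axis), with 1 bar per gene set and the number of promoters in the key. The homology region is in 67.1% of mitotic and 24.3% of DNA replication promoters, and the E2F site in 20.5% and 56.8%.

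The kinases that start mitosis were among the lowest genes of the comparison. Of 16 mitotic kinases and phosphatases, 14 were lower and the median log2 fold change was -1.58. Plk1 drives centrosome maturation and mitotic entry. It was at 20.8, 20.6 and 21.6 FPKM in the CD44loCD62L+ libraries and at 87.1, 86.9 and 85.4 in the CD44+CD62L+ libraries, so that every library of the former was below every library of the latter. Aurka, a spindle pole kinase, was at 11.8, 11.8 and 12.5 against 50.4, 52.2 and 49.6 FPKM (log2 fold change -1.99 ± 0.0559 SE, adjusted p = 1.74e-12). Cdk1 was at 15.6, 15.9 and 15.6 against 62.4, 60.9 and 63.3 FPKM. The ranges of neither gene overlapped. The 2 members below the minimum fold were Cdc25b, a phosphatase that activates Cdk1 (62.8 against 123 FPKM), and Wee1, a kinase that restrains it (6.05 against 11.4 FPKM).

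Cyclins of mitosis were lower as well. Of 13 mitotic cyclins and genes of the anaphase-promoting complex, 12 were lower, with a median of -1.54. Ccnb1, the partner of Cdk1, was at 21.7, 21.5 and 21.5 FPKM against 87.0, 89.2 and 88.2, a 4.08-fold difference with no overlap (log2 fold change -1.98 ± 0.0272 SE, adjusted p = 2.12e-15). Ccna2, which acts in S phase and early mitosis, was at 42.6 ± 0.504 against 155 ± 0.661 FPKM, and Ccnf at 11.1 against 42.2. Cdc20, which activates the complex that destroys cyclin B, was at 39.5 to 40.4 FPKM in the CD44loCD62L+ and 118 to 120 in the CD44+CD62L+ libraries. The exception was Pttg1, encoding securin, the inhibitor of chromatid separation. It was at 35.5, 39.4 and 38.3 FPKM against 39.4, 39.1 and 38.6, ranges that overlap (adjusted p = 0.258), and at 39.0 FPKM in naive cells, which have almost no Ccnb1 (0.402 FPKM).

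**Figure D2:**
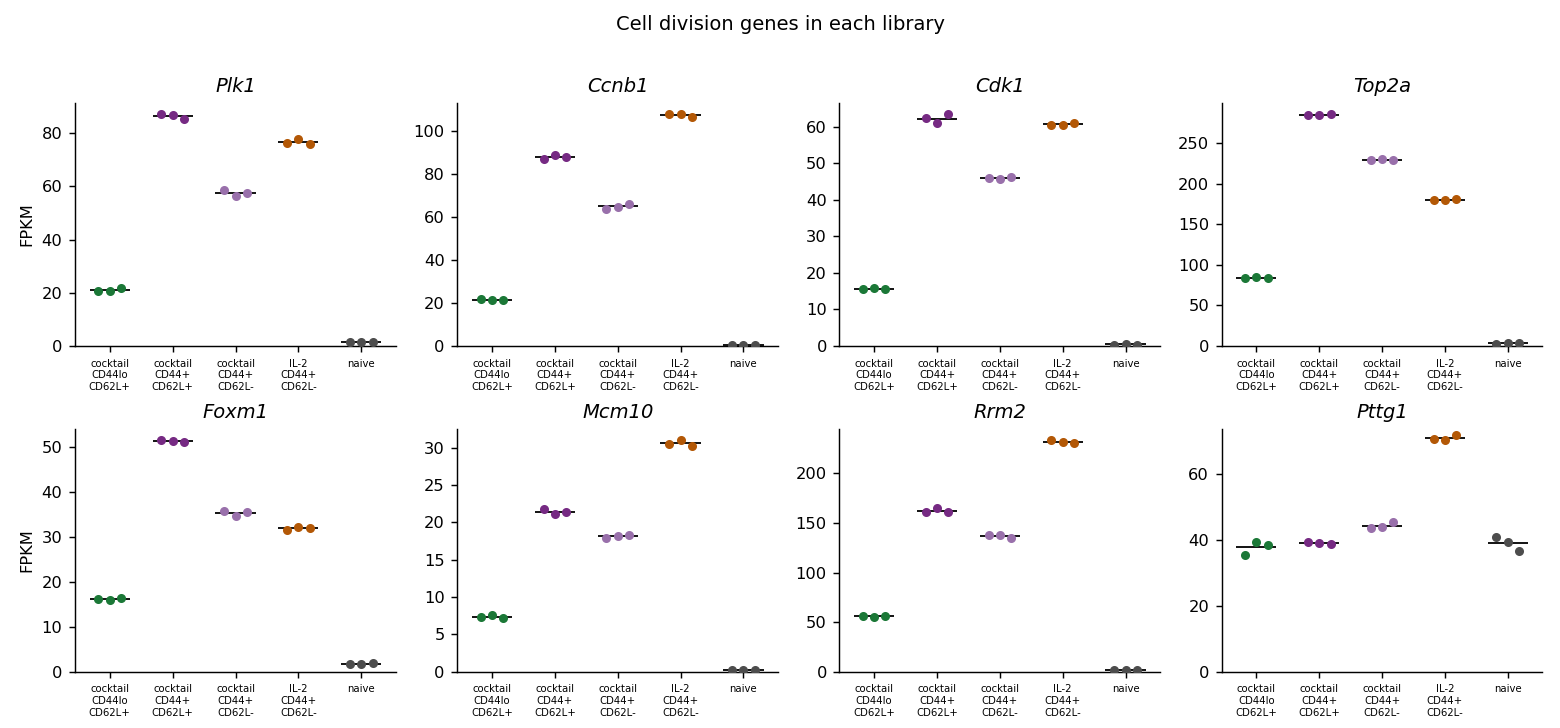
FPKM (vertical axes, from 0) of 8 cell division genes in each library (points, 3 per population) with population means (lines). In 7 panels the CD44loCD62L+ libraries lie below the CD44+CD62L+ libraries and above naive cells, while Pttg1 is at 35.5 to 39.4 FPKM in the first and 38.6 to 39.4 in the second.

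Genes of the spindle and of cytokinesis were lower without exception among those tested: 33 of 33, with fold changes from -1.91 to -1.08 and a median of -1.57. Prc1, which bundles microtubules in the central spindle, was at 17.6, 18.2 and 18.9 against 71.7, 71.8 and 69.9 FPKM. Nusap1, which binds spindle microtubules, was at 24.9 ± 0.608 against 92.9 ± 0.473 FPKM. Stmn1, a tubulin-binding protein and the most abundant member named, was at 207 against 511 FPKM. The smallest difference was in Ckap5, a microtubule polymerase (20.1 against 43.4 FPKM, log2 fold change -1.08). The lowest log2 fold change among the genes named was that of Kpna2, which is in none of the lists and encodes a nuclear import receptor with roles at the spindle (chr11:106988629-106999541 of GRCm38, the whole gene). It was at 45.3, 47.1 and 45.4 against 189, 194 and 193 FPKM, 4.18-fold lower with no overlap (log2 fold change -2.04 ± 0.0157 SE, adjusted p = 2.62e-17). Tuba1c, an alpha tubulin gene also outside the lists, was at 18.8 against 69.2 FPKM. Kif18b, a kinesin gene of the spindle list, was at 9.30 against 35.0.

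Kinetochores, which attach chromosomes to the spindle, had 26 of 31 genes lower, with a median of -1.37. Spc25 and Nuf2, subunits of the Ndc80 complex, were at 13.9 against 50.3 and 13.1 against 45.3 FPKM. Cenpe, a kinetochore kinesin, was just under the minimum fold at 17.3 against 34.6 FPKM (log2 fold change -0.96), and Zwint was the member with the smallest difference at 15.02 against 20.02. Of 10 chromosome condensation genes, 7 were lower. Top2a, the topoisomerase that untangles sister chromatids, was at 83.4, 84.5 and 84.4 against 285, 284 and 286 FPKM. The condensin subunits divided: Ncaph was at 16.8 against 55.5 FPKM and Smc2 at 17.8 against 54.0, while Smc4, the partner of Smc2, was at 168 against 165 FPKM and was also high in naive cells at 130.

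DNA replication genes differed in the same direction by less. All 46 had lower means in the CD44loCD62L+ cells, with a median log2 fold change of -0.95, and 20 passed the minimum fold. No library of one population overlapped with the other for any of the 46, where 38.4% of all genes tested were lower without overlap. Mcm10, which helps to start replication forks, was at 7.28, 7.58 and 7.24 against 21.8, 21.1 and 21.5 FPKM (log2 fold change -1.42 ± 0.0233 SE). Cdc45, a helicase cofactor, was at 16.01 against 43.4 FPKM. Pcna, the sliding clamp, was at 249, 246 and 249 against 460, 463 and 458 FPKM and just missed the minimum fold (log2 fold change -0.89). The smallest differences were in Rfc1, the large subunit of the clamp loader (20.05 against 27.5 FPKM), and Gins4 (25.3 against 37.3).

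Nucleotide synthesis genes had smaller differences. Of 27, 4 were lower, 24 had a lower mean at the adjusted p alone (36.9% of all genes did), and the median was -0.49. The lowest 3 make precursors for DNA. Rrm2, the cycle-regulated subunit of ribonucleotide reductase, was at 56.6, 54.7 and 56.5 against 161, 165 and 160 FPKM. Tk1, thymidine kinase, was at 42.3 against 109 FPKM and Tyms, thymidylate synthase, at 8.72 against 22.6. The 3 members that did not pass the adjusted p belong to purine, pyrimidine and folate synthesis. Adss was at 59.9 against 58.0 FPKM, Dhodh at 7.48 against 7.77 and Mthfd1l at 61.9 against 60.6. Other members of those pathways had lower means at the adjusted p, such as Cad, of pyrimidine synthesis, at 16.7 against 25.1 FPKM, and Shmt2, of the folate cycle, at 53.6 against 84.9.

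Genes that act before S phase had smaller differences than the mitotic genes. Of 21 genes of G1 to S control, 4 were lower: the late-acting transcription factors Foxm1 and Mybl2 and the repressors E2f7 and E2f8. The median was -0.74, and 18 members had a lower and 3 a higher mean at the adjusted p alone. Foxm1 was at 16.1, 16.03 and 16.5 against 51.7, 51.3 and 51.2 FPKM, and Mybl2, which encodes B-Myb, at 8.09 against 23.8. The cyclin genes that respond to growth factors, chosen for description after their values were seen, were below the minimum fold in both directions: Ccnd2 was at 109 against 93.2 FPKM and Ccnd3 at 118 against 148. Their kinase Cdk4 was at 157 against 215 FPKM and Cdk6 at 13.4 against 15.1. Ccne1, the cyclin of S phase entry, was at 16.4 against 31.2 FPKM (log2 fold change -0.88), and Myc was at 86.3 against 71.7. The difference between early and late genes was not itself tested.

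Inhibitors of cyclin-dependent kinases did not move together. Of 18 inhibitors and antiproliferative genes, 1 was lower, Cdkn2c, an inhibitor of Cdk4 and Cdk6, at 18.1, 17.8 and 19.5 against 45.9, 46.7 and 44.4 FPKM. Below the minimum fold, Cdkn1a was at 24.7 against 41.8 FPKM and Cdkn2a at 10.1 against 19.4, while Cdkn1b, the inhibitor typical of resting T cells, was at 65.7 against 46.1 (log2 fold change 0.50). Btg1, an antiproliferative gene, was at 66.3, 67.5 and 69.0 against 36.7, 36.9 and 36.0 FPKM (log2 fold change 0.87 ± 0.0177 SE), with no overlap but under the minimum fold. Btg2 was at 38.8 against 24.3 and Tob1 at 10.3 against 6.14.

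Repair genes used with replication were lower in 16 of 23 cases, with a median of -1.22. H2afx, the histone variant that marks breaks, was at 55.5, 53.3 and 55.8 against 186, 188 and 183 FPKM. Neil3, a DNA glycosylase, was at 16.1 against 48.8 FPKM. Of 24 histone genes of replication tested, 2 were lower, Hist1h2bj (0.262 against 2.26 FPKM) and Hist1h2ag (0.901 against 3.64). The median was -0.34, with 17 members below 0 and 7 above, the highest at 0.997. At the limma adjusted p alone 11 were lower and 2 higher, where 36.9% of all genes tested were lower and 36.5% higher. Near-identical histone copies share reads, and most of these transcripts lack poly(A) tails, so their values are uncertain.

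**Figure D3:**
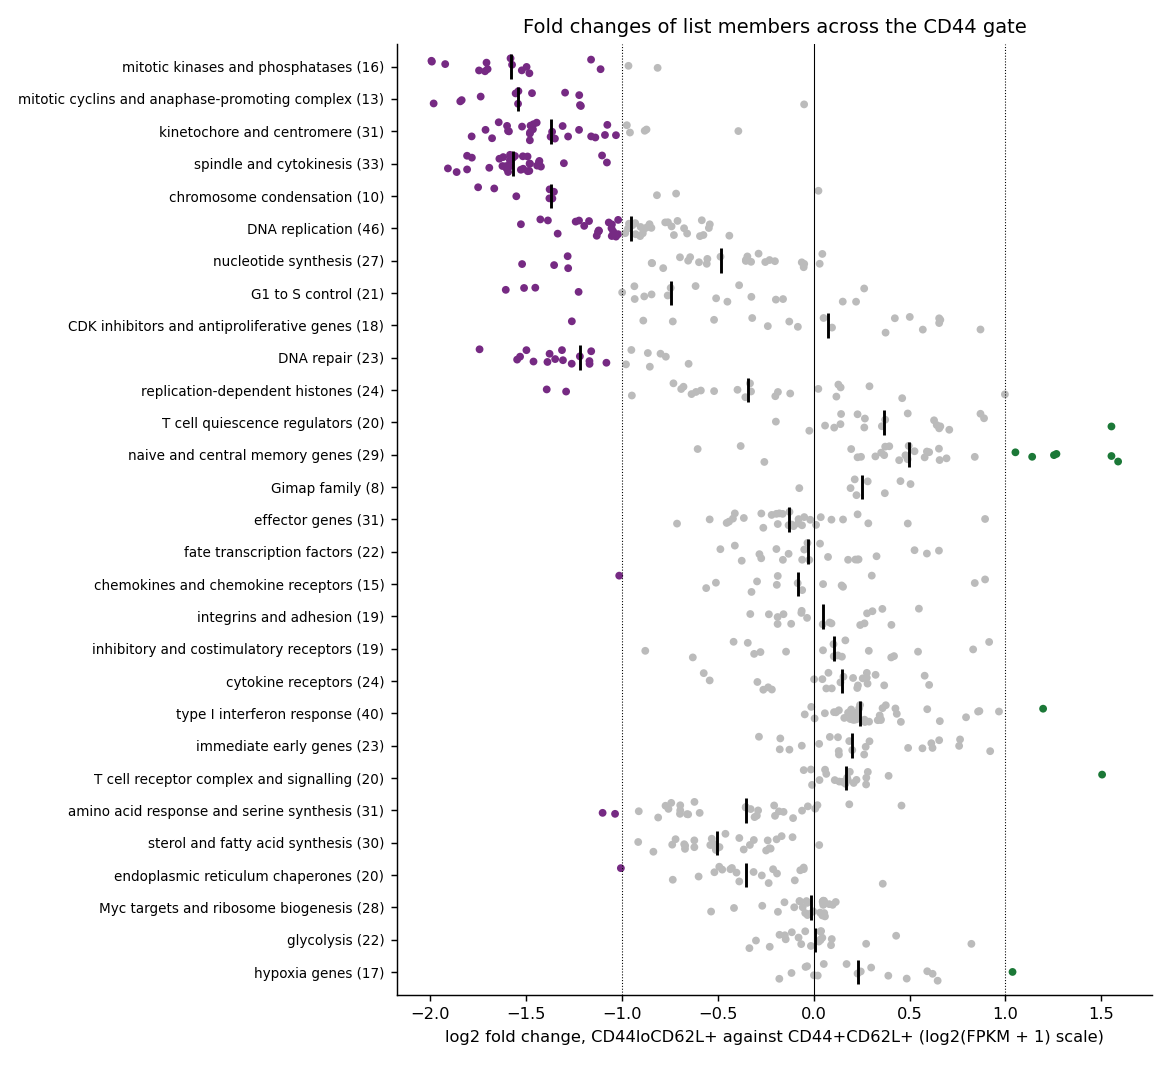
Log2 fold changes (horizontal axis, CD44loCD62L+ against CD44+CD62L+) of all tested members of 29 gene lists (rows, number tested in brackets), with higher genes in green, lower genes in purple, others in grey and medians as bars. Dotted lines mark the minimum fold. Spindle genes all lie at -1.08 or below, and Myc targets and glycolysis genes centre near 0.

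Among genes higher at the CD44lo gate were 2 Kruppel-like factors, Klf2, which holds T cells in the resting, recirculating state, and Klf3. Of 29 naive and central memory genes, 6 were higher, among them Klf2, Klf3, S1pr1, Nsg2 and Actn1. The median over the list was 0.50, and 26 members had a fold change above 0. At the limma adjusted p alone 26 were higher and 3 lower, where 36.5% of all genes tested were higher and 36.9% lower. Klf2, which switches on S1pr1, was at 52.8, 53.4 and 51.9 against 17.7, 17.0 and 17.3 FPKM, 3.04-fold higher. Klf3, a relative of Klf2 that acts as a repressor, was at 12.5, 12.99 and 12.5 against 3.21, 3.78 and 3.67 FPKM (log2 fold change 1.59 ± 0.0484 SE, adjusted p = 4.10e-12). S1pr1, the receptor for leaving lymph nodes, was at 35.8, 34.7 and 35.5 against 14.2, 14.1 and 14.0 FPKM. In all these genes the libraries of the gates were far apart.

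Members of that list below the minimum fold had smaller differences, and 3 lay the other way. Ccr7, the lymph node chemokine receptor, was at 137, 136 and 138 against 77.0, 75.1 and 76.3 FPKM (log2 fold change 0.84 ± 0.0351 SE). Lef1 was at 41.7 against 26.1 FPKM and Tcf7, a transcription factor of memory and stem-like T cells, at 376 against 249. Il7r, the receptor for IL-7, was at 124 against 82.98. Gpr183, a receptor for oxysterols, was at 14.6 against 22.7 FPKM and Treml2 at 26.8 against 32.2. Dapl1, a gene of naive T cells, was at 101 against 88.2 FPKM.

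Most quiescence regulators differed by less than the minimum fold. Of 20, Klf2 was higher, 18 had a fold change above 0 and the median was 0.36. At the limma adjusted p alone 18 were higher and 1 lower, to be read against the shares of all genes given below. Socs3, a feedback inhibitor of cytokine signals, was at 29.6 against 15.5 FPKM (log2 fold change 0.89). Txnip, an inhibitor of glucose uptake, was at 353 against 228 FPKM, close to the 348 of naive cells. Foxo1, which drives Klf2 and Il7r, was at 27.8 against 23.5 FPKM, Tsc2 at 11.1 against 10.6 and Rbl2, which encodes the pocket protein p130, at 37.7 against 43.4. Of the 8 Gimap GTPase genes, none passed the minimum fold, and 7 had a higher and 1 a lower mean by the limma adjusted p, as at an unadjusted p under 0.05. The median was 0.25, and the lower member was Gimap9 (62.7 against 66.0 FPKM). Among all genes, 36.5% were higher and 36.9% lower at the adjusted p.

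**Figure D4:**
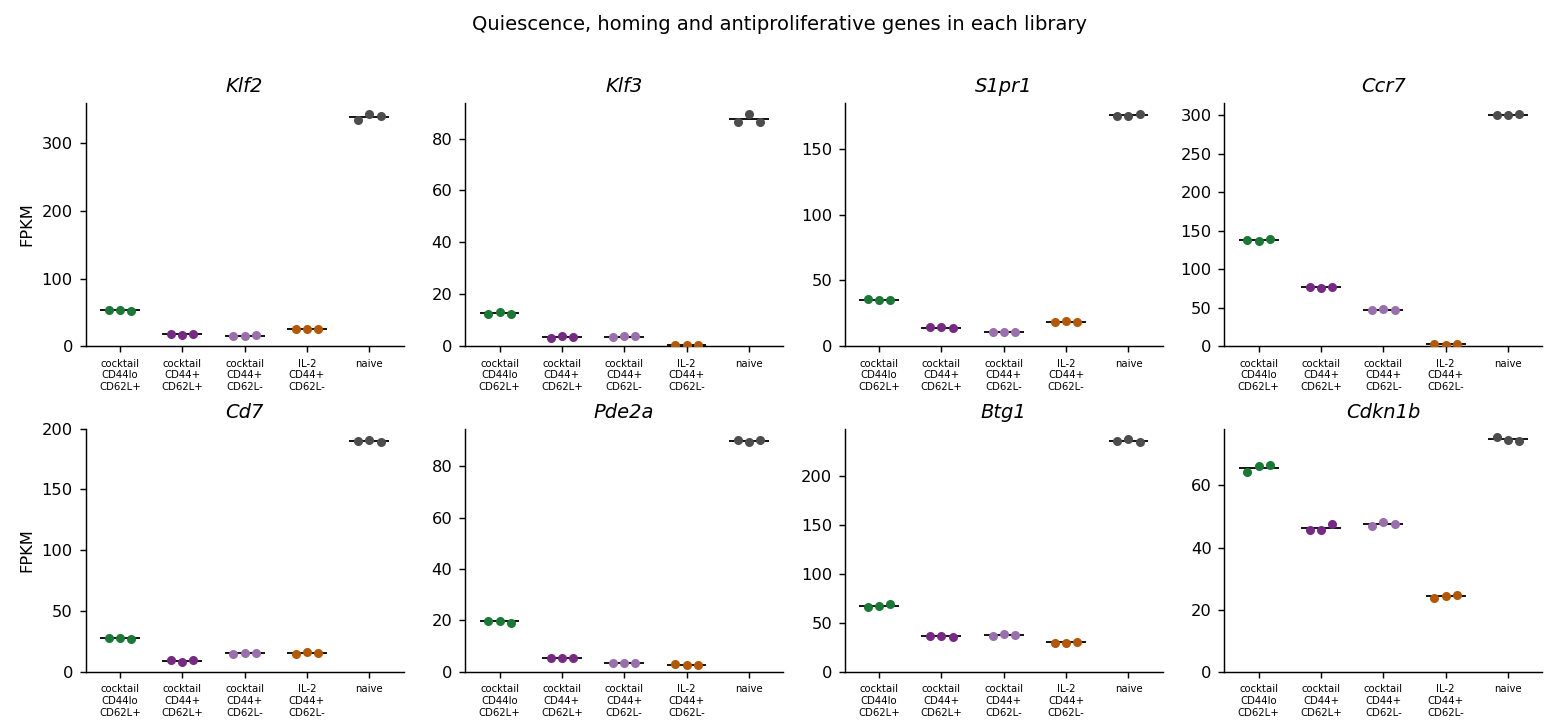
FPKM (vertical axes, from 0) of 8 genes, among them genes of quiescence, homing and growth restraint, in each library (points, 3 per population), with population means (lines). Each is higher in the CD44loCD62L+ than in the CD44+CD62L+ libraries and highest in naive cells, with Klf2 at 51.9 to 53.4 FPKM against 17.0 to 17.7.

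Genes of varied function made up the rest of the highest fold changes. Tcp11l2 was at 19.0, 18.6 and 20.01 against 5.19, 5.17 and 4.69 FPKM, the highest log2 fold change among the genes named (1.75 ± 0.0400 SE). Pde2a, a phosphodiesterase that breaks down cyclic nucleotides, was at 19.95, 19.9 and 19.2 against 5.38, 5.29 and 5.19 FPKM. Cd7, a surface receptor of the immunoglobulin family, was at 28.1, 27.9 and 26.8 against 9.44, 8.32 and 9.54. None of these ranges overlapped. Pik3ip1, an inhibitor of phosphoinositide 3-kinase, was at 57.2 against 23.4 FPKM, and Matk, a kinase that inhibits Src family kinases, at 13.5 against 5.06. The others were Arl5c (48.0 against 19.1 FPKM), Ephx1, an epoxide hydrolase (21.4 against 8.33), Itga7, the laminin receptor integrin alpha 7 (23.3 against 9.37), and Bambi-ps1 (15.5 against 5.59).

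Genes of the T cell receptor complex and its signalling mostly had slightly higher means at the CD44lo gate. Of 20, Cd7 passed the minimum fold. At the limma adjusted p alone 16 were higher and 1 lower, as at an unadjusted p under 0.05, where 36.5% of all genes tested were higher and 36.9% lower at the adjusted p. The median was 0.17. The members nearest 0 included Lck and Themis. Lck, the kinase that starts receptor signalling, was at 393 against 395 FPKM and the adaptor Themis at 79.8 against 80.6, both with overlapping libraries. Of 23 immediate early genes, which respond within minutes to receptor signals, none passed the minimum fold. By the limma adjusted p alone 16 were higher and 4 lower, as at an unadjusted p under 0.05, with the same shares of all genes as background. Nr4a1 was at 9.18 against 4.38 FPKM (log2 fold change 0.92) and Jun at 74.4 against 43.6.

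Surface receptor genes differed both ways, below the minimum fold. Among 24 cytokine receptor genes none passed it. By the limma adjusted p alone 15 were higher and 6 lower (16 and 6 at an unadjusted p under 0.05), where 36.5% of all genes tested were higher and 36.9% lower at that threshold. Il6st, the shared chain of IL-6 family receptors, was at 11.2 against 7.06 FPKM, while Il2ra, the high-affinity chain for IL-2, was at 46.6 against 68.3 and Il12rb1 at 30.9 against 46.5. Among 19 inhibitory and costimulatory receptors none passed it, with 10 higher and 7 lower at the adjusted p and 11 and 7 at the unadjusted p. Pdcd1, encoding PD-1, was at 13.5 against 25.6 FPKM (log2 fold change -0.88), and the ectoenzyme gene Nt5e, encoding CD73, at 42.1 against 21.9 (0.92). Btla was at 26.2 against 14.3. Of 19 integrin and adhesion genes in the list, none passed it, with 8 each way at the adjusted and at the unadjusted p. Itga4 was at 44.0 against 29.7 FPKM.

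Most interferon genes differed by less than the minimum fold. Of 40 genes of the type I interferon response, Ifit3, an antiviral RNA-binding protein, was higher at 83.4, 81.5 and 83.2 against 36.5, 35.2 and 34.9 FPKM. The median was 0.24, and 37 members passed the adjusted p with a higher mean, a share to be read against 36.5% of all genes. Oas2 was at 11.5 against 5.42 FPKM and Ifit1 at 48.7 against 26.3. Oas3, a sensor of viral RNA, was at 77.8 against 78.5, with overlapping libraries.

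Cytotoxic and other effector genes differed by less than the minimum fold. Of 31, none passed it, and by the limma adjusted p alone 4 were higher and 19 lower, as at an unadjusted p under 0.05, where 36.5% of all genes tested were higher and 36.9% lower at the adjusted p. The median was -0.13. Gzmb, encoding granzyme B, was at 896 against 1153 FPKM and Gzmc at 30.03 against 49.8 (log2 fold change -0.71). Gzma was at 125 against 88.4 and Ccl5, a chemokine of memory and effector cells, at 71.8 against 38.2 (0.89). Xcl1, a chemokine for cross-presenting dendritic cells, was the 1 gene called among 15 chemokines and receptors, at 79.7, 82.5 and 79.2 against 164, 167 and 159 FPKM. Its fold change of -1.01 sat at the minimum. Without CD44+CD62L+ replicate 2 it was no longer called.

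Transcription factors of effector and memory fate showed no common direction. Of 22, none passed the minimum fold. By the limma adjusted p alone 9 were higher and 8 lower, as at an unadjusted p under 0.05, shares near the 36.5% and 36.9% of all genes. The median was -0.03, and 0.02 under quantile normalization. Id3, a factor of long-lived memory cells, was at 15.5 against 9.48 FPKM, Bach2, a repressor of effector genes, at 10.4 against 6.91, and Tbx21, encoding T-bet, at 15.8 against 21.3. Tox was at 5.61 against 8.26.

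Few genes of biosynthesis passed the minimum fold. Of 31 genes of the amino acid response, transport and serine synthesis, 2 were lower and the median was -0.35. At the limma adjusted p alone 26 were lower and 2 higher, where 36.9% of all genes tested were lower and 36.5% higher. Psat1, an enzyme of serine synthesis, was at 40.7, 40.1 and 39.5 against 86.3, 86.3 and 88.5 FPKM. Slc7a5, the large neutral amino acid transporter, was at 37.6, 36.2 and 38.1 against 78.5, 77.2 and 76.9 FPKM (log2 fold change -1.03 ± 0.0244 SE). Both pairs of ranges were apart. Of 30 sterol and fatty acid synthesis genes, none passed the minimum fold, but 29 had lower means by the limma adjusted p, as at an unadjusted p under 0.05, where 36.9% of all genes did at the adjusted p. The median was -0.50. Fdps, an enzyme of the isoprenoid pathway, was at 40.9 against 73.8 FPKM and Idi1, of the same pathway, at 18.6 against 31.7. Of 20 endoplasmic reticulum chaperones, Sdf2l1 was lower at 18.7 against 38.6 FPKM and the median was -0.35. By the limma adjusted p alone 18 chaperones were lower and 1 higher, against the same shares of all genes. The Sdf2l1 log2 fold change of -1.005 fell under the minimum without CD44loCD62L+ replicate 2 or 3 or without CD44+CD62L+ replicate 3.

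Genes of ribosome production and glycolysis had medians near 0. Of 28 Myc targets and ribosome biogenesis genes, none passed the minimum fold. By the limma adjusted p alone 8 were higher and 9 lower, as at an unadjusted p under 0.05, against 36.5% and 36.9% of all genes. The median was -0.01, and 0.04 under quantile normalization. Odc1, of polyamine synthesis, was at 96.0 against 140 FPKM and Nop56, of the nucleolus, at 84.6 against 102. Of 22 glycolysis genes, none passed it, with 8 higher and 10 lower at the adjusted and at the unadjusted p, shares near those of all genes. The median was 0.01, and -0.03 under quantile normalization. Aldoc was at 32.4 against 17.9 FPKM and Pgam1 at 373 against 437. Of 17 hypoxia genes, Vegfa, a growth factor for vessels, was higher at 31.2, 30.4 and 31.5 against 14.4, 14.9 and 14.5 FPKM, and the median was 0.23.

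Set beside the other populations, the CD44loCD62L+ cells lay between naive and CD44+CD62L+ cells in most called genes. These levels were not tested. Of 252 lower genes other than small RNA genes, 241 had a mean in the CD44loCD62L+ cells between those of naive and CD44+CD62L+ cells. As these genes were called on the difference between the gates, this asks only for a naive mean below that of the CD44loCD62L+ cells. Of the 252, 126 were under 1 FPKM in naive cells. The share among all tested genes was not counted. Their median level was 9.37 FPKM in the CD44loCD62L+, 25.4 in the CD44+CD62L+, 20.4 in the cocktail CD44+CD62L-, 24.7 in the IL-2 and 1.02 in the naive cells. Of 39 higher genes, 26 lay between in the same sense, with medians of 19.2, 5.41, 5.597, 2.74 and 38.7 FPKM in that order. Vegfa, Itga7 and Ifit3 were among the 13 that did not: Vegfa was at 0.121 FPKM in naive cells and Itga7 at 0.154, and Ifit3 at 25.01.

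Summed over 2 lists of division genes, the CD44loCD62L+ cells lay between naive and CD44+CD62L+ cells, while the place of the IL-2 cells differed. All 33 spindle genes and 20 of the 46 DNA replication genes were called lower, so these sums partly repeat the counts above. The spindle and cytokinesis genes summed to 675 to 678 FPKM in the CD44loCD62L+ libraries, 1931 to 1943 in the CD44+CD62L+, 1527 to 1537 in the cocktail CD44+CD62L-, 1536 to 1550 in the IL-2 and 104 to 105 in the naive libraries. The DNA replication genes averaged 1590 FPKM in the CD44loCD62L+ cells, 3055 in the CD44+CD62L+ cells and 806 in naive cells. Naive cells thus kept more of these transcripts than of spindle genes. For this list the IL-2 cells were the highest at 3773 FPKM, and the cocktail CD44+CD62L- cells were at 2798. For the naive and central memory genes the sums averaged 1804, 1191 and 4813 FPKM, and for quiescence regulators 1491, 1030 and 2428.

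**Figure D5:**
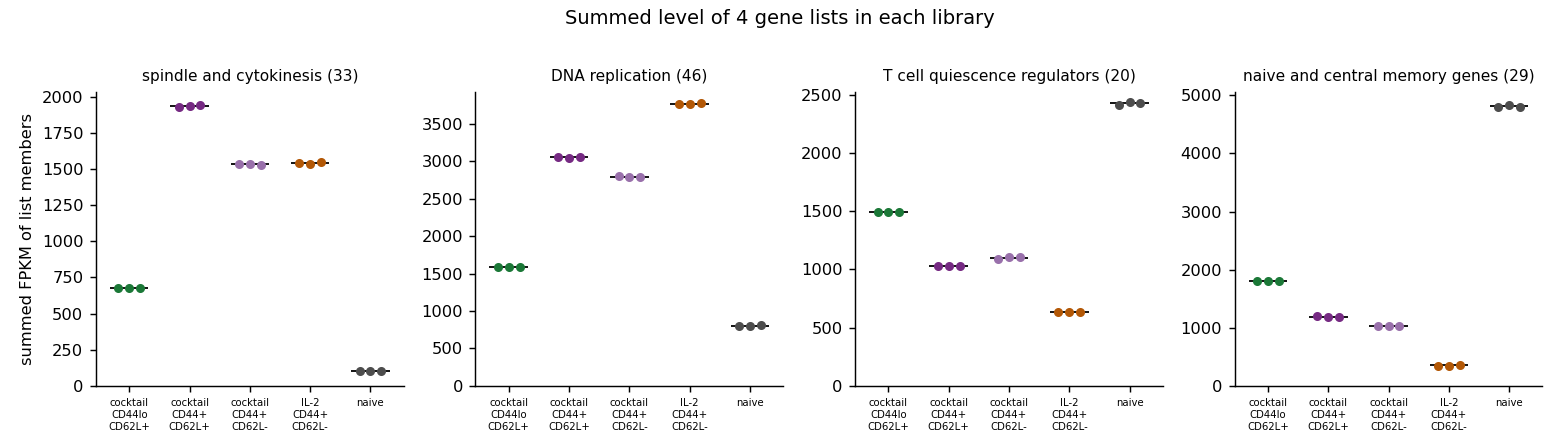
Summed FPKM (vertical axes, from 0) of 4 gene lists in each library (points) with population means (lines), with the number of genes summed in brackets. The spindle genes sum to 675 to 678 in CD44loCD62L+ libraries, between 104 to 105 in naive and 1931 to 1943 in CD44+CD62L+ libraries.

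The CD62L gate of the same culture, CD44+CD62L+ against CD44+CD62L- cells, shares the CD44+CD62L+ libraries with this comparison, so its values are given side by side only. It called 4 of 11242 genes higher (0.0356%) and 9 lower (0.0801%). Median log2 fold changes across the CD44 gate and the CD62L gate were -1.58 and 0.34 for mitotic kinases, -1.57 and 0.34 for spindle genes, -0.95 and 0.14 for DNA replication, and 0.36 and -0.01 for quiescence regulators. A shared value of CD44+CD62L+ enters these pairs with opposite signs. Klf2 had 1.55 and 0.15, Klf3 1.59 and -0.03, and Gzma 0.49 and -1.20.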

How the data were processed

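RNA was extracted with the PicoPure kit and libraries followed Illumina protocols, per the labels' protocols. The authors deposited 1 table of normalized FPKM with a column per library. The submitters' processing notes name TopHat2 2.0.9, Cuffdiff 2.1.1 and mm10, while the annotation, filters and strand setting were not found in them. Of 23284 entries 6039, Eef1a1 among them, are 0 in every library, so a 0 can be a failed estimate.

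Values were taken to log2(FPKM + 1), and genes with a population mean of at least 1 FPKM were kept. Limma 3.58.1 in R 4.3.3 (lmFit, eBayes with trend) was fitted to the 15 libraries, with population as its single factor and Benjamini-Hochberg adjustment. The members and lists were chosen with earlier results of these data known. Named genes were the 15 highest and 15 lowest called genes with at least 10 FPKM in the higher population, no overlap and no predicted or small RNA names. Added to them were up to 6 list members of at least 5 FPKM (the 3 highest and 3 lowest fold changes), called members of lists with 3 or fewer calls, and a sort marker. Some genes that the rule names are not reported here. Other members named, such as Ccnd3, Cdkn1b, Pcna, Lef1, Foxo1, Txnip, Cad, Shmt2, Cdc20, Cdk4, Cdk6, Ccne1 and Gzmb, were chosen after their values were seen. In simulated data for this comparison (10552 genes), 0 of 50 genes changed 1.5-fold, 46 of 50 changed 3-fold, 49 of 50 changed 8-fold and 50 of 50 changed 20-fold were called, with 1 unchanged gene called. A 1.5-fold change lies under the minimum fold, so it is not called by design. The simulated noise was the spread between the CD44+CD62L+ libraries, so the simulation says nothing of the spread between mice or cultures. Relative depth came from ratios of values under 0.3 FPKM. RefSeq promoters were matched by symbol, with the first entry used for 4163 genes with several. Gene spans are from GENCODE. Figures used matplotlib 3.10.9 in Python 3.11.15.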

Additional observations from a re-analysis of the deposited data

How the results depend on the processing

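The counts of called genes depend most on the fold minimum and the pseudocount. The 47 higher genes became 126 with a pseudocount of 0.1, 22 with a pseudocount of 5, 287 with a fold minimum of 1.5 and 9 with one of 4. The 254 lower genes became 156 with a pseudocount of 5, 687 with a fold minimum of 1.5 and 3 with one of 4. A larger pseudocount shrinks folds of low genes by construction. Leaving out a library gave 48 to 61 higher and 252 to 263 lower genes. Deviations of same-numbered libraries had correlations of -0.0126, 0.184 and -0.129, against -0.1575 to 0.1484 for different numbers. These few values show no clear pairing and cannot exclude one. A fit with the replicate block called 49 higher and 254 lower. No named gene that was called changed direction. Slc7a5, Xcl1 and Sdf2l1 were not called under quantile normalization or a pseudocount of 5, and neither were Vegfa, Actn1, Itga7, Matk, Ephx1, Bambi-ps1, Ckap5, Gsg2, Hist1h2ag and Hist1h2bj at that pseudocount. DNA replication and DNA repair had 8 lower genes each at a pseudocount of 5. Hist1h2bc, at a log2 fold change of 1.00, was called in some fits without a library.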

Other observations

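Called genes outside the lists, chosen here after their values were seen, include further genes of division and a few of other kinds. Mxd3, a Myc-network repressor expressed in proliferating cells, was at 18.9, 18.02 and 18.2 FPKM in the CD44loCD62L+ libraries and at 64.6, 66.0 and 65.6 in the CD44+CD62L+ libraries. Penk, the precursor of enkephalins, was at 9.80 ± 0.162 against 25.6 ± 0.724 FPKM and at 10.3 in the cocktail CD44+CD62L- cells, so the CD44+CD62L+ cells were the highest of the 3 cocktail populations. Among higher genes outside the lists were Kdm5b, a histone demethylase, and St6gal1, a sialyltransferase, with log2 fold changes of 1.28 and 1.18.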
